A study of Saccharomyces cerevisiae with 8 samples.

Results

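Outside the genes that RNA polymerase III (Pol III) transcribes, a few stretches of the yeast genome bind its assembly factor TFIIIC with little sign of the polymerase. Here 8 intergenic regions of budding yeast, Saccharomyces cerevisiae, are described, out of 6399 array features. Of the 8, 7 were chosen by their measured values: the TFIIIC subunit Tau95 stood above the other proteins both after rapamycin and before it, with no tRNA gene beside the region. They lie between RPB5 and CNS1 (feature iYBR154C), TFC6 and ESC2 (iYDR362C), ADE8 and SIZ1 (iYDR408C), TLG1 and SDC1 (iYDR468C), GUP1 and SCY1 (iYGL084C), RAD2 and TNA1 (iYGR258C-0), and PPM2 and ARG8 (iYOL141W). The 8th, between RAD14 and ERG2 (iYMR201C), was added because it holds RNA170, the gene of a small Pol III transcript, and it had more of the polymerase than most of the others. A region is called here by the gene its feature is named for.

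TFIIIC recognises tRNA genes through promoter elements inside the gene, the A box and the B box. It then places TFIIIB, whose subunits include Brf1 and Bdp1, upstream of the start, and TFIIIB recruits the polymerase. Yeast also has sites that TFIIIC occupies without the complete machinery, known as ETC (extra TFIIIC) loci, and one is known at the promoter of TFC6, which encodes a TFIIIC subunit. Rapamycin inhibits the TOR kinase and so imitates a lack of nutrients, a condition in which Pol III is repressed through Maf1.

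Occupancy was measured by chromatin immunoprecipitation and hybridisation to arrays of intergenic regions. Tau95, Bdp1 and Brf1 carried a myc tag and C160, the largest polymerase subunit, an HA tag. Each protein was measured after 30 min of rapamycin at 0.2 ng per µl and in untreated cells (0 min), both in exponential growth in rich YPD medium, so that 8 groups hold a single deposited sample, or array, each. Per the labels, every array carried immunoprecipitated DNA of the wild type in Cy5 and of a strain without MAF1 in Cy3, and the strain and reference behind the single deposited value are unknown.

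The values are on a log2 scale whose zero is, per the design text, the median of loci without Pol III machinery, and they were read as relative brightness. Experiments were done in triplicate per that text, but replicate values were not used here, so the values have no replicate error and their differences no test. Between 117 and 639 features lacked a value per array, and none of the 8 regions did. Brf1 at 30 min had the most gaps in its data and a coarse array, with 2028 distinct values among 5760. Because values of Tau95 and the other proteins chose the regions, the levels below are a description. Regions are placed by their neighbouring genes, without coordinates, as no genome build is stated for the array.

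At all 8 regions Tau95 was bright, while the medians of the polymerase and TFIIIB subunits stayed below 1. The median of Tau95 was 2.33 at 30 min (1.57 to 3.54) and 2.95 at 0 min (1.82 to 4.33). That of C160 was 0.54 at 30 min and 0.29 at 0 min, that of Bdp1 0.17 and 0.50, and that of Brf1 0.59 and 0.18 in that order of times. Over all features the medians of the 8 arrays lay between -0.08 and 0.17. Tau95 reached 1, a 2-fold excess over zero, at 8 of 8 regions at both times, against 27.9% of all features at 30 min and 25.9% at 0 min. C160 reached it at 2 of 8 at 30 min, against 25.4% of all features, and at 1 of 8 at 0 min, against 22.9%. Bdp1 did so at 1 of 8 at 30 min (29.5% of all features) and 2 of 8 at 0 min (28.8%), and Brf1 at 3 of 8 (27.8%) and 1 of 8 (22.7%). Of these 6 counts, that of Brf1 at 30 min alone was a larger share than among all features.

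**Figure D1:**
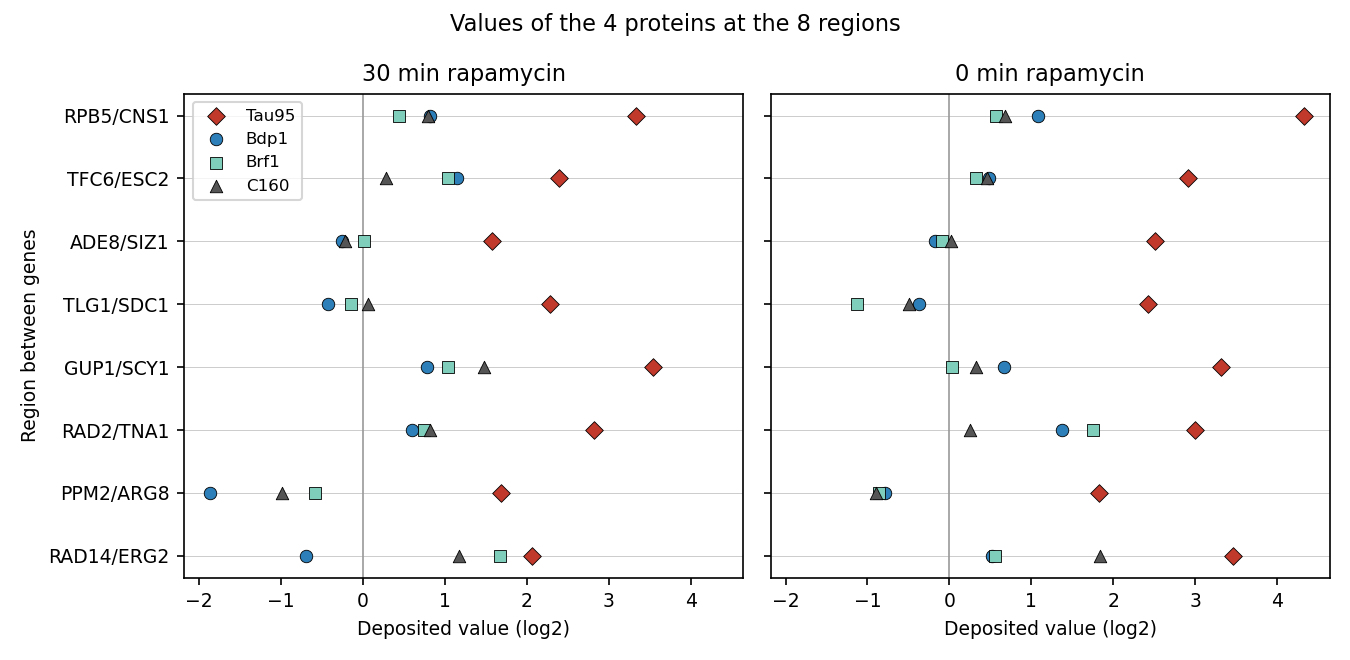
Deposited log2 values (horizontal axis) of the 4 proteins at each of the 8 regions, named by the genes on either side, at 30 min (left) and 0 min (right) of rapamycin. Each point is 1 array value without replicate error; the Tau95 diamonds lie right of the other symbols in every row, by the least at RAD14/ERG2 at 30 min (0.38).

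Among the 8, RPB5 and TFC6 themselves encode parts of the Pol III machinery. RPB5 is a subunit shared by RNA polymerases I, II and III, and CNS1 across the region is a co-chaperone. The RPB5 region had 3.33 for Tau95 at 30 min and 4.33 at 0 min. Bdp1 had 0.82 and 1.08 there, Brf1 0.44 and 0.57, and C160 0.80 and 0.68, again with 30 min first. This was the brightest of the 8 for Tau95 at 0 min, rank 51 of 6278 features, while its C160 value at that time ranked 1781 of 6282.

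TFC6 encodes a DNA-binding TFIIIC subunit, and ESC2 on its other side acts in silencing and genome stability. The TFC6 region had 2.39 for Tau95 at 30 min and 2.91 at 0 min. C160 stayed low, at 0.28 and 0.46. Bdp1 had 1.15 and 0.48, and Brf1 1.04 and 0.33. At 30 min Bdp1 was thus the nearest to Tau95, 1.24 below it, whereas at 0 min all 3 other proteins lay at least 2.43 below.

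The regions of ADE8, an enzyme of purine synthesis, TLG1, a SNARE protein of the endosome and Golgi, and PPM2, a methyltransferase of tRNA modification, were those where the other 3 proteins were lowest. SIZ1, a SUMO ligase, SDC1, a subunit of the histone methyltransferase complex COMPASS, and ARG8, an enzyme of arginine synthesis, lie across from them. ADE8 had 1.57 for Tau95 at 30 min and 2.51 at 0 min, with all values of the others between -0.26 and 0.024. TLG1 had 2.28 and 2.42 for Tau95, against values from -0.42 to 0.065 at 30 min and from -1.12 to -0.37 at 0 min for the others. PPM2 was the dimmest of the 8 for Tau95 at 0 min, with 1.69 at 30 min and 1.82 at 0 min, and its other values ran from -1.87 to -0.58. Dim as it was, PPM2 had a gap between Tau95 and the highest other protein of 2.27 at 30 min and 2.60 at 0 min, the second of the 8 by the smaller of both times.

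GUP1, a membrane acyltransferase that remodels GPI anchors, and RAD2, a nuclease of nucleotide excision repair, had somewhat more of the other proteins. Across from them lie SCY1, a kinase-like protein, and TNA1, a nicotinic acid transporter. The GUP1 region had 3.54 for Tau95 at 30 min, the brightest of the 8 at that time, and 3.31 at 0 min. Its C160 value was 1.48 at 30 min and 0.33 at 0 min, Brf1 had 1.04 and 0.035, and Bdp1 0.78 and 0.66. The 2 TFIIIB subunits and the polymerase were thus all above zero at both times, though always at least 2.06 below Tau95. RAD2 had 2.83 and 3.00 for Tau95, 0.60 and 1.38 for Bdp1, 0.74 and 1.76 for Brf1, and 0.82 and 0.25 for C160. It was the region with the most TFIIIB at 0 min, and C160 was then 2.75 below Tau95. Values of Brf1 at 30 min need care: the 1.04 of TFC6 and that of GUP1 are 1 identical number, which 7 features of that coarse array share.

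RAD14, a damage recognition factor of nucleotide excision repair, differed from the other 7. ERG2, across from it, is an enzyme of ergosterol synthesis, and RNA170 lies between them in the gene table. Tau95 had 2.06 at 30 min and 3.46 at 0 min, C160 1.17 and 1.84, Brf1 1.68 and 0.56, and Bdp1 -0.69 and 0.52. Its C160 value at 0 min was the highest of the 8. Tau95 exceeded the highest other protein, C160, by 1.62 at 0 min, but exceeded Brf1 by 0.38 at 30 min, so that the region with an annotated Pol III transcript had the smallest gap of the 8 at 30 min. At 0 min RAD2 had the smallest, 1.24.

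The gap of Tau95 over the highest of the other 3 proteins measured how far apart TFIIIC stood in array brightness. The gap compares separate immunoprecipitations, with different tags for Tau95 and C160, so its fold values are not ratios of occupancy. Its median over the 8 regions was 2.03 at 30 min and 2.54 at 0 min. A gap of 1 or more, a 2-fold excess, was found at 7 of the 8 at 30 min, where 1.81% of 5585 features had one, and at 8 of 8 at 0 min, where 0.93% of 6023 had one. At both times together it was found at 8 of 5487 features (0.146%): the 7 regions other than RAD14, and the region beside PMA1, the plasma membrane proton pump. These counts restate how the regions were chosen. Ranked by the smaller of the 2 gaps, the 7 were ranks 1 to 7 of 5487, with RPB5 first at 2.52 (5.72-fold), and RAD14 was rank 94. The lowest of the 7 were TFC6 and RAD2, at 1.24 each, and the features just below were PMA1 at 1.03 and RRT6 at 0.97.

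Features named for Pol III genes, 250 for tRNA genes and 7 for others, showed the reverse order of brightness. Their median gap was -0.78 at 30 min (quartiles -1.30 and -0.32, n = 246) and -1.41 at 0 min (-1.83 and -1.03, n = 251), so the highest of the other proteins was usually above Tau95. The highest gap of any Pol III feature was 1.21 at 30 min and 0.56 at 0 min, both at a tryptophan tRNA gene, tW(CCA)K. At 0 min, 143 Pol III features were at least as bright for Tau95 as the dimmest of the 8 regions. Their median for C160 was 3.79 and their lowest 1.95, whereas the highest C160 value among the 8 regions was 1.84. At 30 min there were 174 such features, with a median of 2.99 and a lowest value of 0.59 for C160, of which 5 were below 1, against 6 of the 8 regions. C160 reached 1 at that time at 2 of the 8 regions and in 25.4% of all features. The 6 regions below 1 were thus near the share of all features. None of the 174 or the 143 had all 3 other proteins below 1, while 5 of the 8 regions did at each time. This contrast follows in part from how the regions were chosen, and the share of all features with all 3 below 1 was not counted. The 8 regions and the Pol III features overlapped for C160 at 30 min, at this brightness of Tau95. At 0 min they were apart by little, 1.84 at RAD14 against 1.95, on single arrays. Other features of this brightness also lay below 1.95 for C160 at 0 min. The feature beside MRPL49 had 2.55 for Tau95 and 0.04 for C160, and that beside MCP1 3.22 and 0.86. The separation is thus not particular to the 8 regions, and the number of such features was not counted.

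**Figure D2:**
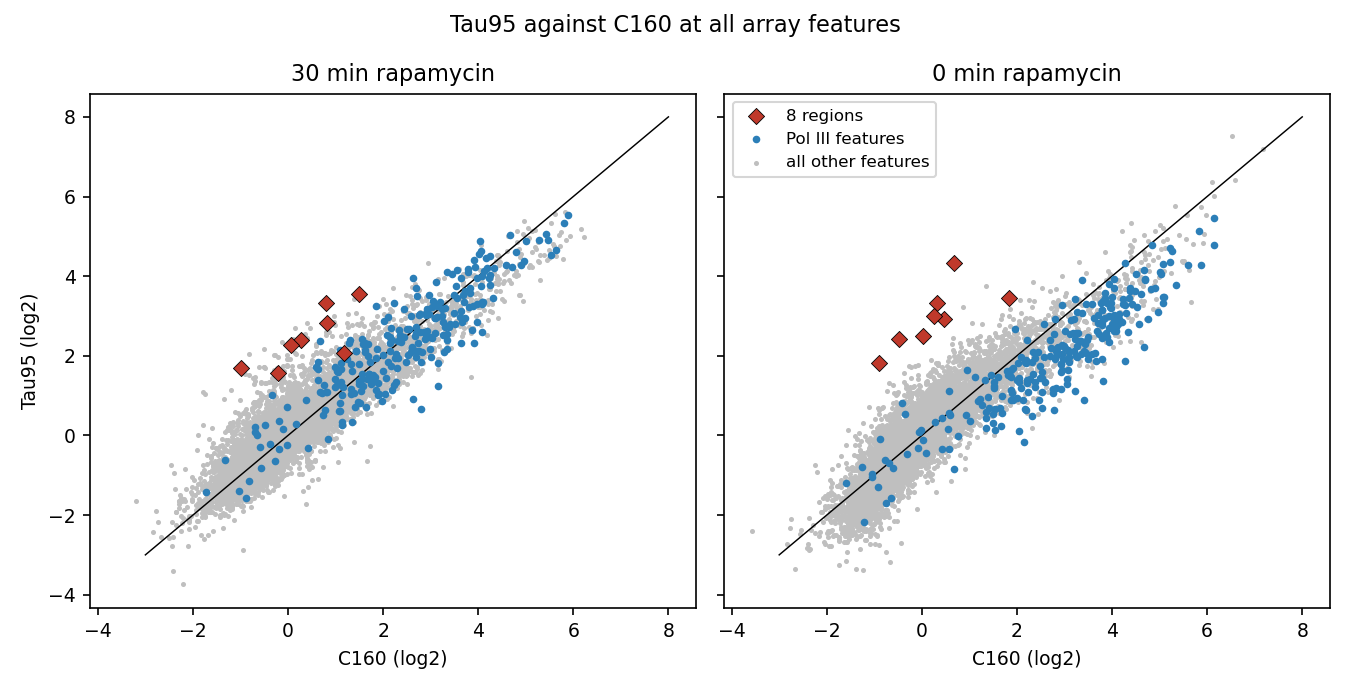
Tau95 (vertical, log2) against C160 (horizontal, log2) for all array features with both values, at 30 min (left) and 0 min (right). Red diamonds are the 8 regions, blue points Pol III features, grey points all other features, and the line marks equal values; at 0 min the 8 regions lie 1.62 or more above it, and at 30 min RAD14 is the nearest to it, 0.89 above.

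Tau95 was brighter at each region than beside it. The nearest array features on either side, 16 in all, had a median of -0.27 for Tau95 at 30 min (-1.26 to 1.57) and of -0.69 at 0 min (-1.76 to 1.44). Of the 16, 3 reached 1 at 30 min and 1 did at 0 min. None had a gap of 1 or more, among 14 with all values at 30 min and 16 at 0 min. Tau95 exceeded both nearest features at 8 of 8 regions at each time, by a median of 1.71 at 30 min and 2.62 at 0 min. Of all features 33.1% at 30 min and 32.9% at 0 min exceeded both of theirs, and of features between divergent genes 48.8% and 49.8%. These shares are not matched for brightness of Tau95, whose values chose 7 of the 8 regions. The count of 8 of 8 is thus in part a restatement of that choice. RAD14 had the largest excess at 0 min, 4.41, and TLG1 the smallest, 0.97. For TLG1 the nearest feature on 1 side lies between RMT2 and PKH3 and does not border TLG1. It had 1.24 and 1.44 for Tau95, but also 1.54 and 1.16 for Bdp1, so the gap itself was found at TLG1 and not there.

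The other proteins exceeded both neighbours at fewer of the regions. At 0 min C160 exceeded both nearest features at 5 of 8, against 32.8% of all features and 47.9% of divergent ones. Brf1 did so at 5 of 8 (32.9% and 48.5%) and Bdp1 at 6 of 8 (32.4% and 46.1%). At 30 min C160 did so at 4 of 8 (33% and 46.3%), Brf1 at 3 of 6 with values (33.3% and 46.3%) and Bdp1 at 4 of 7 (32.7% and 47.5%). The counts at both times were larger shares than among divergent regions, by less at 30 min. With 8 regions or fewer, 1 region shifts such a share widely, so these differences are not read as a result. The excess of C160 at 0 min was 2.40 at RAD14, far above the 0.97 of TFC6 and the 0.54 of GUP1, while RAD2 and TLG1 had -1.04 and -1.42, below a neighbour.

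**Figure D3:**
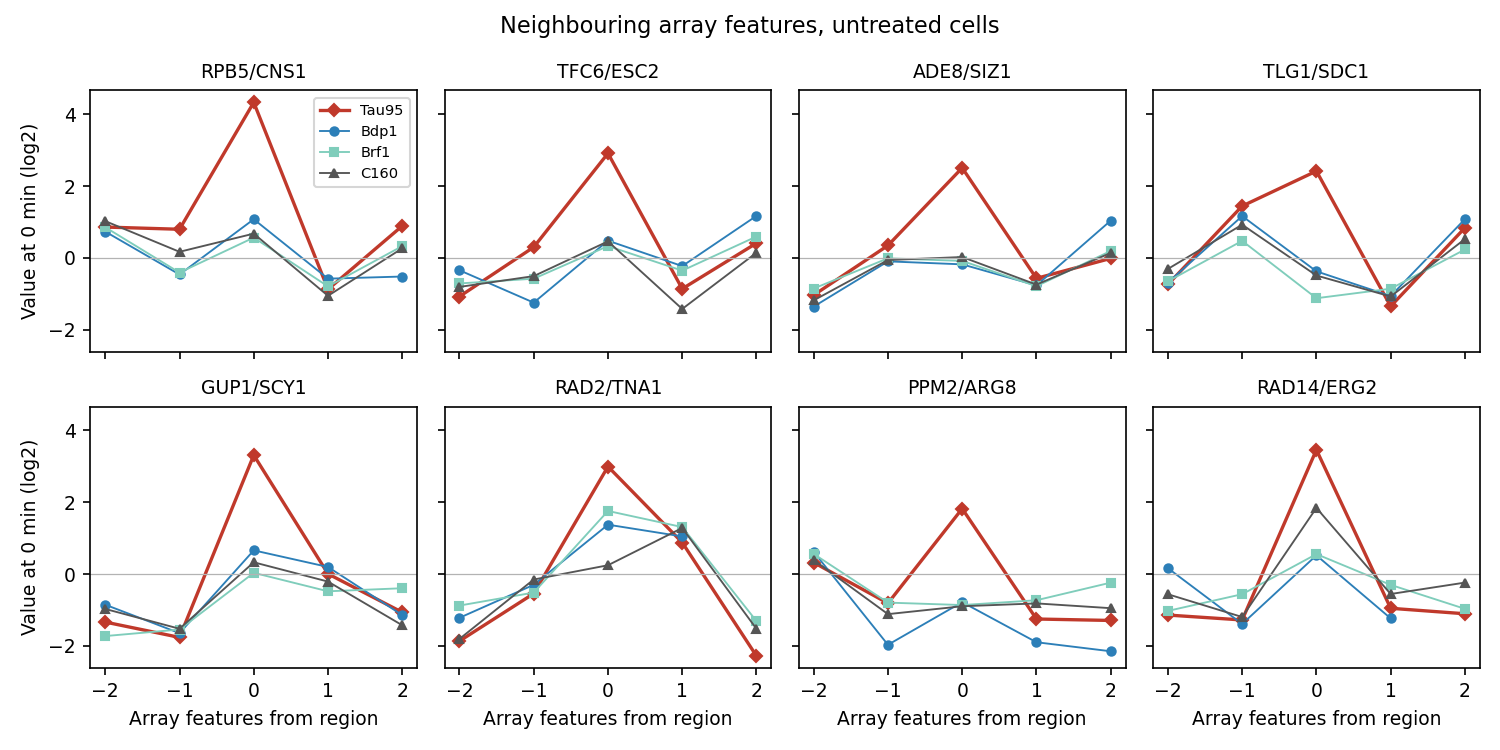
Values at 0 min (vertical, log2) of the 4 proteins at each region (position 0) and at the 2 nearest array features on either side (horizontal, counted in array features toward higher coordinates, where the second feature of the RAD2/TNA1 region is drawn at position 1 by its name alone). Points are single array values, a missing value is left out; Tau95 (red) peaks at position 0 in each panel, and C160 (grey) has a peak of its own at RAD14/ERG2, 2.40 above its neighbours.

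The long region between RAD2 and TNA1 is covered by a pair of array features, whose order along the chromosome is not known. The feature described above had 2.83 for Tau95 at 30 min and 3.00 at 0 min. The other, iYGR258C-1, had 1.35 and 0.88. For Brf1 the order was turned at 30 min, with 0.74 at the first and 2.85 at the second, and at 0 min the values were 1.76 and 1.31. Bdp1 had 0.60 and 1.38 at the first, with 1.43 and 1.05 at the second, and so was higher at the first at 0 min, as Brf1 and Tau95 were. C160 had 0.82 and 0.25 at the first, with 1.17 and 1.28 at the second. At iYGR258C-1 the gap of Tau95 over the highest other protein had values of -1.501 at 30 min and -0.43 at 0 min. The pattern was found at 1 of the 2 features.

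A tRNA gene lies one gene away from the TFC6 region, on the far side of ESC2. The feature between ESC2 and that tRNA gene was dim, with -1.01 for Tau95 at 30 min and -0.86 at 0 min, and -0.77 and -1.42 for C160. The feature next to the TFC6 region on that side was thus below zero for Tau95 at both times.

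With rapamycin, Tau95 was lower at 30 min at 7 of the 8 regions, GUP1 being higher by 0.23, but at 4 of 8 when the arrays were centred on ribosomal protein genes. Of all features 35% were lower. The median change, 30 min minus 0 min, was -0.35 for the 8 regions, against 0.19 for all features and 0.27 for Pol III features. Without RAD14 it was -0.17. Other features at least as bright for Tau95 at 0 min as the dimmest of the 8 stood in between: of 759, 48.9% were lower and the median change was 0.011. Among these, 142 Pol III features had a median of 0.18 with 35.2% lower. The 617 not named for a Pol III gene had -0.024 with 52% lower, and features next to tRNA genes were not removed from them. Brightness was matched by this floor of 1.82 alone, whereas the median of the 8 at 0 min was 2.95.

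The changes of Tau95 differed in size among the regions. RAD14 had -1.40, RPB5 -0.998, ADE8 -0.94 and TFC6 -0.53. RAD2, TLG1 and PPM2 had -0.17, -0.14 and -0.14. RAD14 alone passed 2-fold, against 1.81% of all features lower by that much, and none passed it upward, against 6.87%. The highest value of the Tau95 array at 30 min was 5.61, where that at 0 min was 7.53, so the bright end of these arrays differs, and its part in the lower values was not tested.

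The other proteins showed no common direction at the 8 regions. C160 was lower at 4 and higher at 4, where 42.1% of all features were lower, with a median change of 0.017 that turned to -0.060 with arrays centred on all features and to -0.020 with centring on ribosomal protein genes. Pol III features had -0.32. The one 2-fold change of C160 was at GUP1, higher by 1.16, against 3.36% of all features, and none was 2-fold lower, against 2.17%. Brf1 was higher at 6 of 8, where 52.1% of all features were lower, with a median of 0.50 (0.28 without RAD14) against -0.03 for all features and -0.70 for Pol III features. It passed 2-fold upward at RAD14 (1.12) and GUP1 (1.01), where 5.28% of all features did, and downward at RAD2 (-1.01), where 7.1% did. The coarse Brf1 array at 30 min enters all of these values. Pol III features were far brighter at 0 min, with medians of 2.95 for C160, 3.06 for Brf1 and 3.27 for Bdp1. The 8 regions had 0.29, 0.18 and 0.50. Values of these proteins entered the choice of 7 of the 8 regions. The changes were not matched for brightness at 0 min, so the contrast with Pol III features is a description.

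Bdp1 was lower at 6 of 8, against 45.2% of all features, by a median change of -0.17, against -0.20 for Pol III features and 0.04 for all features. Without RAD14 it was -0.076. It passed 2-fold downward at RAD14 (-1.21) and PPM2 (-1.09), against 2.72% of all features, and upward at none, against 0.777%. At PPM2 this was a change between values that were already below zero at 0 min, -1.87 at 30 min and -0.78 at 0 min. At GUP1, C160 and Brf1 were both higher at 30 min by 2-fold, Bdp1 by 0.12 and Tau95 by 0.23. No other region had 2 proteins past 2-fold upward.

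**Figure D4:**
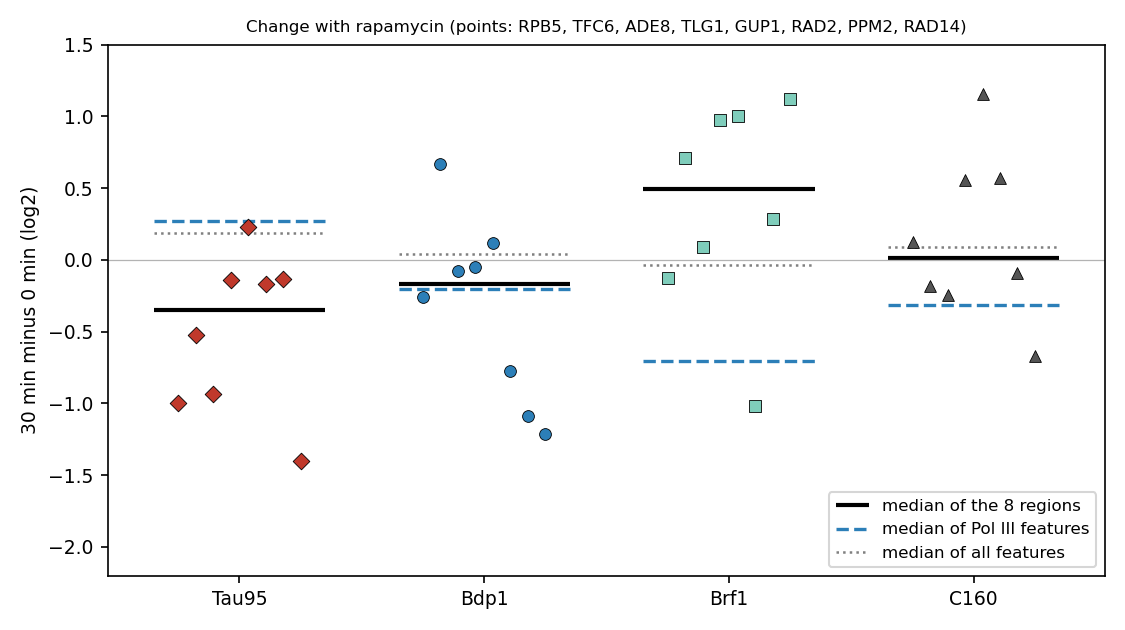
Change with rapamycin (30 min minus 0 min, log2, vertical) of each protein at the 8 regions, in the order given in the title from left to right within each protein. Black bars are medians of the 8 regions, blue dashed bars those of Pol III features and grey dotted bars those of all features. For Brf1 the median of the 8 regions is 0.50 and that of Pol III features -0.70. Their median levels at 0 min were 0.18 and 3.06, and the changes are not matched for this.

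The direction of the neighbouring genes was not used to choose the regions, though position was, by the absence of a tRNA gene at 7 and the presence of RNA170 at RAD14. Of the 8, 7 lay between divergently transcribed protein-coding genes, so that the promoters of both face the region, and PPM2 and ARG8 run in tandem. Without RAD14 it was 6 of 7. Among 5500 features with a known gene on both sides, 1477 were divergent (26.9%), 2652 tandem and 1371 convergent. The divergent share was 26.6% with no tRNA gene next to the feature and 33.8% with one. It was 37.7% of the 408 features with no tRNA gene next that were at least as bright for Tau95 at 0 min as the dimmest of the 8. At RAD14 the next annotated gene is RNA170, which runs on the same strand as RAD14, and counting it in place of ERG2 leaves 6 of 8.

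Divergent regions were also brighter on these arrays for all 4 proteins. Their median at 0 min was 0.43 for Tau95, 0.38 for Bdp1, 0.20 for Brf1 and 0.16 for C160, against -0.89, -0.72, -0.66 and -0.68 for convergent regions. At 30 min the divergent medians were 0.44, 0.42, 0.36 and 0.29, against -0.55, -0.73, -0.62 and -0.61. The part of this general brightness in the layout of the 8 regions was not tested.

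Since TFC6 and RPB5 belong to the Pol III machinery, the regions of its other genes were examined. A feature lies on the side of higher coordinates of the gene it is named for. That is the promoter side of TFC6 and RPB5. It is the far end, away from the gene's own promoter, for TFC7, BDP1, SPT15, RPC53, RPC37, RPC19, RPO26, RPB10 and RPC10. Of 6 genes of TFIIIC subunits, 5 had a feature. A gap of 1 or more was found at 2 of these at 30 min and at 1 at 0 min, TFC6. The second at 30 min was TFC4, a large TFIIIC subunit, whose region had 1.46 for Tau95 at 30 min and -0.60 at 0 min, a change of 2.07, with the other proteins between -1.01 and -0.28 at 30 min. TFC8 had 1.53 and 1.05 for Tau95 but as much of C160, 1.58 and 1.33. TFC3 and TFC7 were below 1 for Tau95 at both times.

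Of the 17 features of Pol III subunit genes, RPB5 was the single one with such a gap at either time. RET1, the second largest subunit, had 2.78 for Tau95 at 0 min with 2.91 for C160, and no Tau95 value at 30 min. RPC17, next to a tRNA gene, had 1.998 and 1.82 for Tau95 with 1.82 and 3.84 for C160. None of the 5 features of BRF1, BDP1, SPT15, PZF1 and MAF1 had a gap of 1 or more, the highest being 0.84 at BRF1 at 0 min. At 0 min TFC6 and RPB5 were thus the machinery genes on these lists with such a gap, and both had been chosen for it. At 30 min TFC4, which was not chosen, had a larger gap (1.74) than TFC6 (1.24).

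The features most like the 8 regions were sought by Euclidean distance over the 8 arrays to the regions' median profile, among 5479 others with all values. The nearest were those beside FAT3 (distance 1.57), ECM38 (1.75), RIF2 (1.75), OPT2 (1.76) and MRPL49 (1.77). The 8 regions themselves lay between 1.13 (TFC6) and 3.70 (PPM2), so some of them were farther from their own median than these. FAT3, which encodes a protein of fatty acid uptake, had 2.07 for Tau95 at 30 min and 1.72 at 0 min with gaps of 0.99 and 0.85.

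By the smaller gap, the next features after the 7 were PMA1 (1.03), RRT6 (0.97), PEA2 (0.95), MRPL49 (0.94) and COX4 (0.93), none of them beside a tRNA gene on the feature's side. PEA2, a polarity protein, was as bright for Tau95 as the GUP1 region, 3.70 at 30 min and 3.75 at 0 min, but had 2.75 and 1.86 for Bdp1 and 2.20 and 1.35 for C160. MRPL49, a mitochondrial ribosomal protein, was on both lists. It had 1.70 and 2.55 for Tau95, 0.46 and 0.04 for C160, 0.77 and 0.61 for Brf1, and -0.59 and -0.81 for Bdp1, and like 7 of the 8 regions it was lower for Tau95 at 30 min, by 0.84. PMA1 was dim throughout, with 1.29 and 0.55 for Tau95 and all other values between -2.10 and -0.17, so its gap lay between values that were mostly low.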

How the data were processed

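For each of 8 samples, the authors deposited 1 log2 value per feature. Per the labels' design text, the authors performed immunoprecipitations in triplicate and scaled enrichment ratios to a median of 1 over loci not targeted by Pol III. For background correction, spot filters and array build the sources used here give nothing, and replicate values were not used. Base 2 was taken from the steps of low values. The number of arrays limits precision, and with 1 sample a group no test was run.

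The regions, lists and comparisons were chosen with earlier results of these data known. Named are the 8 regions, their neighbours, the 5 nearest features, the 5 with the largest smaller gap, and extremes of the lists.

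Gene names and neighbours came from a RefSeq gene table (assembly R64). Of 5806 features named for open reading frames, 5525 had a match there. A feature stands for the side of higher coordinates: with a tRNA gene there, the Bdp1 median at 0 min was 2.74 on left arms (n = 79) and 2.96 on right arms (n = 130), with one on the other side 0.08 and 0.17 (n = 72 and 120). Strand was read from locus names. Calculations used Python 3.11.15, numpy 2.4.6 and pandas 2.3.3, and were tested on simulated data. A planned search for promoter motifs was not run.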

Additional observations from a re-analysis of the deposited data

Results flagged for a closer look

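The region of RAD14 was singled out because its proteins passed 2-fold in opposite directions with rapamycin. Brf1 was higher at 30 min by 1.12, while Tau95 had a change of -1.40 and Bdp1 of -1.21. The difference was not tested, since each protein and time has 1 array. The Brf1 value at 30 min, 1.68, comes from the coarse array, and the next feature on the side of ROT1 was also brighter there, at 1.01 against -0.56 at 0 min.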

How the results depend on the processing

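No paired analysis was possible because each group has 1 deposited sample. Arrays were centred on all features or on ribosomal protein genes, scaled to equal spread, read without RAD14, without Brf1, or against the mean of the other proteins. Counts and medians at the 8 regions then moved by less than 1.5 times, or by less than the SD over the 8 regions, in 77 of 78 cases. The exception was the number of regions lower for Tau95 at 30 min, which was 4 of 8 with centring on ribosomal protein genes, whose own median was 0.09 at 30 min and 0.28 at 0 min, and 5 with equal spread. The SD over the regions is a wide limit, from 0.56 to 1.01, so few medians could pass it. Within it the median change of Tau95 went from -0.35 to -0.16 with centring on ribosomal protein genes, and that of C160 crossed zero. The median gap ranged from 1.87 to 2.27 at 30 min and from 2.20 to 2.63 at 0 min. Alternatives for the divergent layout and for this Tau95 count were chosen after seeing the data. The alternative motif search was not run. Without replicate values, differences of the size of the array noise cannot be told from change.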

Other observations

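Some regions had a large gap of Tau95 at 1 time only, and they were chosen after their values were seen. At 30 min the largest outside the 8 regions were beside PKR1 (2.67), FRS1 (2.46) and VPS13 (2.33), where Tau95 was 2.17, 1.55 and 2.05, against 0.53, -0.34 and 0.77 at 0 min. At these the other 3 proteins were below zero at both times, and Tau95 was higher at 30 min by 1.64, 1.89 and 1.29. FRS1 encodes a subunit of phenylalanyl-tRNA synthetase, and its region borders RPL22A, a ribosomal protein gene. At 0 min the largest was beside MCP1, at 2.17, and its gap was 0.41 at 30 min. There Tau95 had 2.77 at 30 min and 3.22 at 0 min, while Brf1 had 2.36 and 0.31 and C160 2.24 and 0.86. The MCP1 region was thus bright for Tau95 at both times and for Brf1 and C160 at 30 min, with changes of 2.05 and 1.38.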
